A study of Homo sapiens with 56 samples.

Results

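Described here are 6 genes that buffer and export zinc, the metallothioneins MT2A, MT1E, MT1X, MT1F and MT1G and the zinc exporter SLC30A1, in 7 established human colorectal cancer cell lines. The genes were listed by symbol and matched to their Ensembl identifiers. All 6 were found in both deposited count tables, among 16485 genes in the table for HCT116, DLD1, LoVo and SW948 and 16454 in the table for HT29, SKCO1 and SW1417. Each line, labelled wild-type and epithelial, was treated with 10 mM 2-methylisocitrate (2-MiCit), a tricarboxylic acid of the bacterial methylcitrate cycle that can bind metal ions, or with water, its vehicle. The 14 groups had 4 sequenced libraries each, 56 together. A cell line is a single cancer's descendants in culture, so each line stands for 1 tumour. The labels do not say whether the 4 libraries of a group are separate cultures, so the spread behind each p-value may be technical only. How long cells were treated is not given in these sources. The question followed here is how much of each gene the lines expressed, and whether 2-MiCit changed it.

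Metallothioneins are small proteins whose many cysteines hold zinc, copper and cadmium. Their genes lie in a cluster on chromosome 16 and are switched on by the zinc-sensing transcription factor MTF1, which binds metal response elements in their promoters. Free zinc, heavy metals, oxidants and glucocorticoids all raise metallothionein RNA, and zinc chelators lower it. SLC30A1 (ZnT1) pumps zinc out of the cell through the plasma membrane and is also a target of MTF1. Metallothioneins and SLC30A1 are therefore widely read as a gauge of free zinc in the cytosol.

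On GRCh38 as annotated by GENCODE release 29, the 5 metallothionein genes lie in order along chromosome 16. MT2A (ENSG00000125148) spans chr16:56608199-56609497 on the forward strand, MT1E (ENSG00000169715) chr16:56625475-56627112, MT1F (ENSG00000198417) chr16:56657694-56660698, MT1G (ENSG00000125144) chr16:56666731-56668065 on the reverse strand, and MT1X (ENSG00000187193) chr16:56682424-56684196 on the forward strand. SLC30A1 (ENSG00000170385) lies elsewhere, at chr1:211571568-211578742 on the reverse strand. The coding sequences of the 3 most abundant metallothioneins are shown because their likeness limits how well reads can be assigned to each. The capitals mark the cysteine codons (TGC or TGT).
MT2A: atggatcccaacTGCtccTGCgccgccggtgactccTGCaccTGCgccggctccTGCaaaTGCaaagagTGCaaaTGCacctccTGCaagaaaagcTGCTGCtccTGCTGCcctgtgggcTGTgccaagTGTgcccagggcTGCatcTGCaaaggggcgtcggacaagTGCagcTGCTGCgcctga
MT1E: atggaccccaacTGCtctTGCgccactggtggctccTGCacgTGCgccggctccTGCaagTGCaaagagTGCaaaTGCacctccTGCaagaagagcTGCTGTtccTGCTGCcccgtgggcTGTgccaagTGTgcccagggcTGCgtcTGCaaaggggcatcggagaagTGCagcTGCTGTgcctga
MT1X: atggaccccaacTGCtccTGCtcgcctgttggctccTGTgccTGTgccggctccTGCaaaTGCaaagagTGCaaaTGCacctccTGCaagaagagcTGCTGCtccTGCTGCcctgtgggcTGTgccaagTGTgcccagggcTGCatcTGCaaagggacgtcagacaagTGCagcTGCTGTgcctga
Each of the 5 metallothionein coding sequences holds 20 cysteine codons, among 62 codons with the stop, or 63 in MT1G. The 5 sequences are 88.7% (MT1F and MT1X) to 93.7% (MT1G and MT2A) identical in pairs. Salmon shares reads that match several transcripts. Of the 31-letter words of each representative transcript, 48.1% of those of MT1X, 31.5% of MT1G, 15.3% of MT1E, 12.2% of MT2A and 8.3% of MT1F occur in another metallothionein gene or pseudogene. The split between the metallothioneins is therefore uncertain, most for MT1X and MT1G, while SLC30A1 shared none (0).

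Promoters of 3 of the 6 genes were found in the RefSeq promoter table (GRCh38.p14): those of MT2A, MT1X and SLC30A1. They are shown because all 3 genes are known MTF1 targets. Each run holds the 250 bases before the start site in the gene's direction, and the capitals mark the core of the metal response element, searched as TGCACNC or TGCGCNC on both strands.
MT2A, chr16:56608334-56608583, forward strand: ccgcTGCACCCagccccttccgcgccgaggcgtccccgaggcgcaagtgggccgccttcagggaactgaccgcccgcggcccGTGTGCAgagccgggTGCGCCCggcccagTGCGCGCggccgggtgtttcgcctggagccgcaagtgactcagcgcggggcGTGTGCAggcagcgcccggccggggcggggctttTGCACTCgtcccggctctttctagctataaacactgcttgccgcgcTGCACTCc
MT1X, chr16:56682220-56682469, forward strand: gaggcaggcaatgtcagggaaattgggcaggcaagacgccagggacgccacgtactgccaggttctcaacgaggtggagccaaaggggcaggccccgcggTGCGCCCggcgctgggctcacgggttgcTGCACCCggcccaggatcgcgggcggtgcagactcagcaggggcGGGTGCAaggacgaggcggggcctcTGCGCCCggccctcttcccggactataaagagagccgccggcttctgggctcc
SLC30A1, chr1:211579162-211579411, reverse strand: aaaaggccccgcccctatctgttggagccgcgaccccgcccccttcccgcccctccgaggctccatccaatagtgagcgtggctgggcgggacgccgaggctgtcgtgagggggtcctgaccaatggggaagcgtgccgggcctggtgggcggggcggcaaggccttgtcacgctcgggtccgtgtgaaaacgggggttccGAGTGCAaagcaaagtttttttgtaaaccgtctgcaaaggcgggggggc
The MT2A promoter held 7 matches, that of MT1X 4 and that of SLC30A1 1, and no matches overlapped. Among 35116 promoters of the same length, 24.8% held at least 1 match, 0.37% at least 4 and 0.0313% at least 7. A match is a stretch of letters and not a shown binding site.

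Depth per library was 13.8 to 19.4 M counts for the first table and 29.1 to 45.4 M for the last. Of 11 colon epithelial markers, 10 were among the counted genes, and 6 to 10 were above 5 CPM in each line. Only 2 or 3 of 6 fibroblast, 1 or 2 of 4 endothelial and 2 of 6 leukocyte markers were among the counted genes. Over those genes, the fibroblast and endothelial lists summed to at most 22.1 and 1.93 CPM. The leukocyte list reached 1849 CPM in HT29 and 1135 CPM in SW948. That sum was almost all LYZ, a lysozyme gene that secretory epithelium also expresses, at up to 1848 CPM, while CD14 stayed at or below 2.23 CPM in every library. A pair of libraries stood apart by transcript length. The slope of log2 CPM on transcript length, against the mean of their line, was -0.188 per doubling in DLD1 control replicate 1 and -0.151 in SW948 2-MiCit replicate 2, and between -0.083 and 0.093 in the other 30 libraries of that table. Metallothionein transcripts are short, so some results are given with and without these libraries. These are the fold changes within DLD1 and SW948, the summed levels, the correlations and the differences between lines that passed the test. Control levels, and calls for a single line from a fit over all lines of the table, include them.

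In control cells the lines differed far more in MT1E, MT2A and MT1G than in SLC30A1, while MT1X and MT1F varied less. Levels are CPM (counts per 1 M library counts, scaled with TMM factors over the libraries of a table), as mean ± SD over 4 libraries. The 2 tables were normalised separately, so lines of different tables are set side by side without a test.

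MT2A was highest in HCT116 at 336 ± 18.3 CPM, followed by DLD1 at 205 ± 66.4, LoVo at 52.7 ± 11.8 and SW948 at 16.9 ± 1.53 CPM. No neighbours in that order overlapped. In the last table HT29 had 46.6 ± 0.851 CPM and SKCO1 43.1 ± 2.71 CPM, with overlapping ranges, and SW1417 had 6.11 ± 0.505 CPM. MT1E spanned the widest range of the genes detected in every line. It stood at 333 ± 136 CPM in DLD1 and 244 ± 17.3 in HCT116, with overlapping ranges, at 134 ± 29.2 in LoVo, and at 1.31 ± 0.342 CPM in SW948, 254-fold below DLD1. The DLD1 levels and this ratio include control replicate 1. That library had 534 CPM of MT1E, against 237 to 282 CPM in the other DLD1 controls. For MT2A it had 303 CPM, against 162 to 185 CPM. In the last table MT1E was 99.3 ± 1.97 CPM in HT29, 5.44 ± 0.322 in SW1417 and 4.14 ± 0.674 in SKCO1, all apart.

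MT1X varied less between lines, from 48.3 ± 13.9 CPM in DLD1 to 9.48 ± 1.39 in SW948, with LoVo (31.1 ± 5.97) and HCT116 (28.8 ± 2.83) overlapping between them. In the last table it was 19.0 ± 0.836 CPM in SKCO1, 11.6 ± 0.437 in SW1417 and 7.38 ± 0.377 in HT29, in which MT1E was highest. MT1F was low in every line, between 1.00 ± 0.150 CPM in HT29 and 5.92 ± 0.660 in LoVo. MT1G was present in some lines and near or at 0 in others. Its level was 16.8 ± 1.85 CPM in LoVo, 7.38 ± 0.644 in SKCO1, 1.10 ± 0.401 in SW948, 0.655 ± 0.0867 in HT29 and 0.395 ± 0.0783 in SW1417. DLD1 had 2 MT1G counts over its 4 control libraries. HCT116 had 0 in all 8 libraries, which allows up to 0.0455 CPM over the 4 controls (3 counts, counting error only).

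SLC30A1, the exporter, was 92.9 ± 13.4 CPM in DLD1, 78.0 ± 5.03 in LoVo and 74.0 ± 1.32 in SW948, and these neighbours overlapped. HCT116, the line with the most MT2A, had the least SLC30A1 at 30.0 ± 4.26 CPM, apart from the other lines of its table. In the last table SKCO1 had 95.7 ± 1.24 CPM, above SW1417 at 57.9 ± 1.51 and HT29 at 54.7 ± 4.14, which overlapped. The highest line exceeded the lowest 3.10-fold for SLC30A1 in the first table, against 254-fold for MT1E, 19.9-fold for MT2A, 5.09-fold for MT1X and 4.01-fold for MT1F. The same ratio in the last table was 1.75-fold for SLC30A1, 24.0-fold for MT1E, 18.7-fold for MT1G, 7.63-fold for MT2A, 2.58-fold for MT1X and 2.50-fold for MT1F. Per kilobase of transcript, the order within HCT116 control cells was MT2A at 491 CPM per kb, MT1E at 347, MT1X at 58.3, SLC30A1 at 5.48 and MT1F at 4.78. In SW948 control cells the same scale gave MT2A 24.7, MT1X 19.2, SLC30A1 13.5, MT1G 2.72, MT1F 2.67 and MT1E 1.86 CPM per kb.

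**Figure D1:**
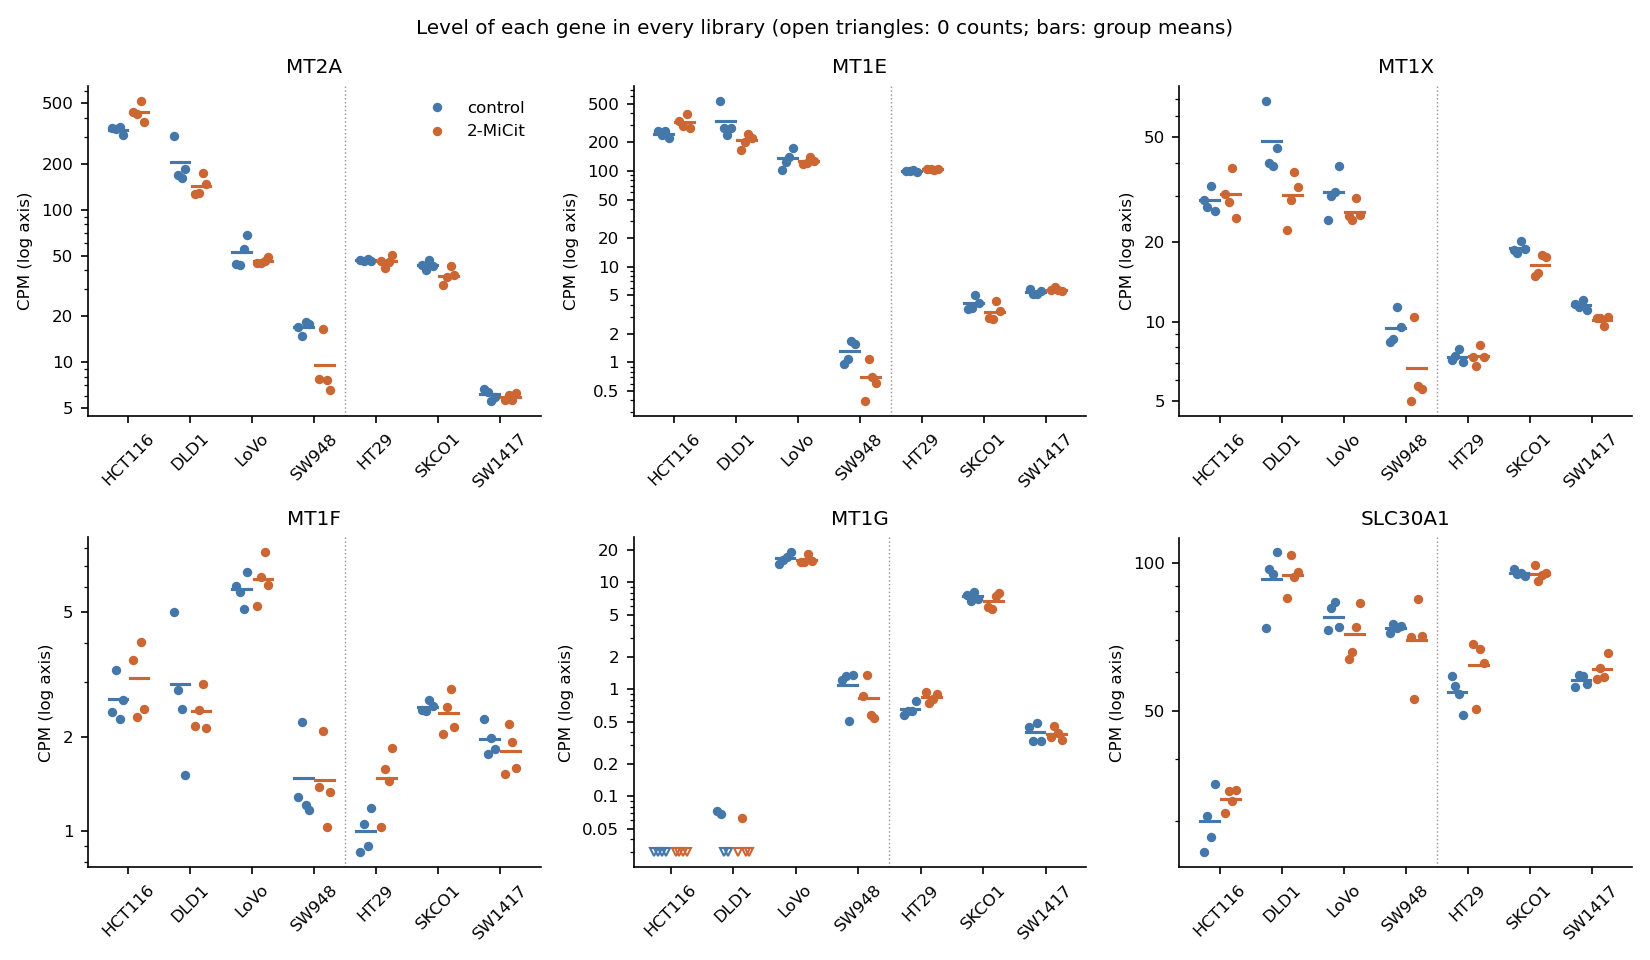
CPM of each gene in every library on a log axis, with controls in blue, 2-MiCit in orange and bars at the group means. The dotted line separates the 2 tables, and open triangles stand for libraries with 0 counts, drawn at the foot of the MT1G panel. MT2A, MT1E and MT1G differ between lines by far more than between the treatments, and MT1G is at 0 in all 8 HCT116 libraries.

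The makeup of the metallothionein pool differed between lines as well. Counts of all metallothionein genes in a table were summed, which depends less on how reads were split among the copies. The control sum was 611 ± 37.3 CPM in HCT116, 591 ± 217 in DLD1, 313 ± 63.0 in LoVo and 30.9 ± 2.15 in SW948. In the last table it was 155 ± 2.94 CPM in HT29, 77.7 ± 4.58 in SKCO1 and 25.5 ± 1.02 in SW1417. MT2A made up 55.0% of it in HCT116, 54.5% in SW948 and 55.5% in SKCO1. MT1E led in DLD1 (55.9%), LoVo (42.9%) and HT29 (63.9%), and MT1X led in SW1417 (45.3%). LoVo was set apart by MT1A, a further metallothionein gene, which held 21.1% of its pool at 66.0 ± 13.8 CPM and had 0 counts in HCT116 and DLD1.

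**Figure D2:**
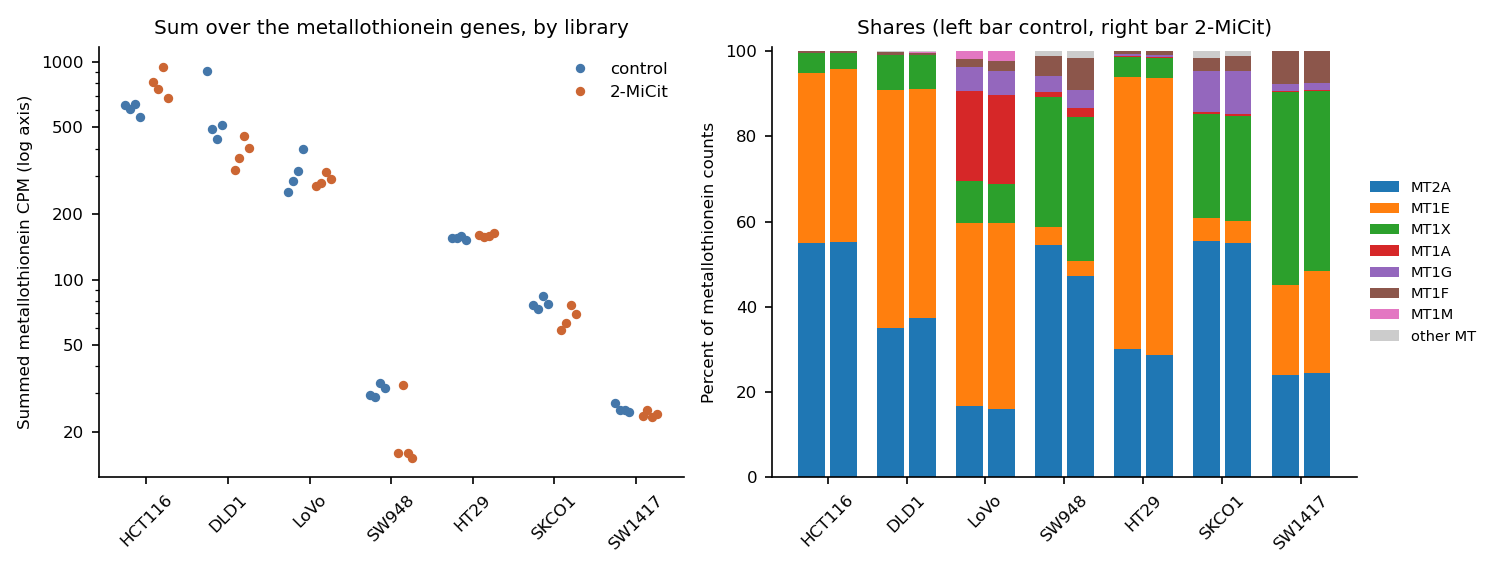
Left, the summed CPM of the metallothionein genes in each library on a log axis, with controls in blue and 2-MiCit in orange. Right, the mean percent of those counts held by each gene, with control as the left bar and 2-MiCit as the right bar of each line. MT2A leads in HCT116, SW948 and SKCO1, MT1E in DLD1, LoVo and HT29, and MT1X in SW1417.

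The response to 2-MiCit was tested in each line with edgeR's quasi-likelihood test over all genes of the table, and called means an adjusted p (Benjamini-Hochberg) under 0.05. Of the 42 combinations of gene and line, 40 passed the filter on low counts. MT1G did not pass in HCT116 and DLD1. Of these 40, 3 were called: MT2A and MT1E rose in HCT116 and MT1X fell in SKCO1. A further 8 had an unadjusted p below 0.05, among 11 in all, where the share of all genes below it ran from 6.66% in SW948 to 46.3% in HCT116. SLC30A1 was called in no line.

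HCT116 had the largest response over all genes, with 37% of 13834 genes called and 19% called higher. MT2A stood at 347, 338, 349 and 309 CPM in the controls and at 439, 424, 518 and 378 CPM with 2-MiCit. Every treated library lay above every control. The increase was 1.29-fold (log2 0.37 ± 0.09 SE, adjusted p = 0.00818). MT1E moved from 259, 238, 257 and 222 CPM to 333, 294, 392 and 277 CPM, again without overlap and with replicate 3 highest. Its increase was 1.31-fold (log2 0.39 ± 0.10 SE, adjusted p = 0.0161). Groups did not overlap in this direction for 20% of the genes tested in HCT116.

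The other 3 genes tested in HCT116 were not called. MT1X was 28.9, 27.3, 32.8 and 26.3 CPM in controls and 30.5, 28.3, 38.2 and 24.7 CPM with 2-MiCit, which overlapped (log2 0.06 ± 0.13 SE, adjusted p = 0.755). MT1F gave a log2 value of 0.20 ± 0.21 SE (adjusted p = 0.505). SLC30A1 was 25.9, 30.7, 27.8 and 35.7 CPM in controls and 31.2, 34.4, 32.8 and 34.6 CPM with 2-MiCit (log2 0.13 ± 0.09 SE, adjusted p = 0.316). Of the 5 tested genes 2 were called, and their median log2 value was 0.20 against 0.03 over all genes. MT2A and MT1E were called in all 8 fits that left out 1 library. Neither was called in 1 fit over the 4 lines of the table, which shares the spread of all of them (adjusted p = 0.144 for MT2A and 0.102 for MT1E). The summed CPM of the epithelial markers moved with the treatment in HCT116, from 4518 to 5033 in controls to 5970 to 7008 with 2-MiCit, and its part in the result was not tested.

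In SKCO1, 18.9% of 14651 genes were called and 10.8% were called lower. MT1X fell there from 18.7, 18.3, 20.2 and 18.9 CPM to 14.9, 15.3, 17.9 and 17.7 CPM. The groups did not overlap, which held in this direction for 13.6% of genes. The change was 1.15-fold lower (log2 -0.20 ± 0.06 SE, adjusted p = 0.0270). MT2A was 43.2, 40.2, 46.7 and 42.4 CPM in controls and 32.2, 35.9, 42.4 and 37.0 CPM with 2-MiCit, overlapping through replicate 3, and was not called (log2 -0.22 ± 0.08 SE, adjusted p = 0.0999). Its unadjusted p was below 0.05, as for 31.8% of genes in SKCO1. MT1E gave log2 -0.28 ± 0.15 SE (adjusted p = 0.219). SLC30A1 was the steadiest gene, between 92.1 and 99.1 CPM in all 8 libraries (log2 0.0029 ± 0.03 SE, adjusted p = 0.959).

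The MT1X call in SKCO1 depended on the libraries used. It was kept in 3 of the 8 fits that left out 1 library, with adjusted p between 0.0107 and 0.0936, and was lost without control replicate 1, 3 or 4 or without 2-MiCit replicate 1 or 2. Without 2-MiCit replicate 3, MT1X, MT2A and MT1E were all called lower, with MT2A at log2 -0.29 (adjusted p = 0.00318) and MT1E at -0.43 (adjusted p = 0.0375). The share of all genes called in that fit is not given here. MT1H, another metallothionein, was also called lower in SKCO1, from 1.16 ± 0.220 to 0.739 ± 0.0744 CPM (log2 -0.64 ± 0.20 SE, adjusted p = 0.0348).

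SW948 gave the lowest values of log2 change for MT2A and MT1E, and none (0) of the 6 genes was called, as for 0% of all 13334 genes tested with edgeR. At an unadjusted p below 0.05 there were 2, against 6.66% of all genes. MT2A was 16.9, 14.7, 18.2 and 17.6 CPM in controls and 7.66, 16.4, 7.60 and 6.56 CPM with 2-MiCit. The 2-MiCit libraries 1, 3 and 4 lay far below the controls, while replicate 2, the library with the -0.151 length slope, lay among them. The fitted value was log2 -0.82 ± 0.27 SE (adjusted p = 0.522). Without that library it was -1.22 (adjusted p = 0.00146), and MT2A was then 1 of 2 genes called lower and 3 called in all.

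MT1E and MT1X followed the same libraries in SW948. MT1E, at 14, 18, 26 and 25 counts in the controls and 6, 15, 11 and 9 counts with 2-MiCit, gave log2 -0.91 ± 0.33 SE (adjusted p = 0.522), where counting error alone is 25.4% per library. Without replicate 2 it was log2 -1.20 (adjusted p = 0.848). MT1X was 8.37, 8.58, 11.4 and 9.55 CPM in controls and 5.02, 10.5, 5.73 and 5.55 CPM with 2-MiCit (log2 -0.50 ± 0.24 SE, adjusted p = 0.522). Replicate 2 was again the library among the controls, and without it MT1X was log2 -0.81 (adjusted p = 0.223). MT1G gave log2 -0.41 ± 0.39 SE and MT1F -0.02 ± 0.30 SE, and -0.75 and -0.25 without that library. SLC30A1 was lowest in that same library at 53.0 CPM, with the others at 71.0, 84.8 and 71.2 CPM against controls of 72.3 to 75.4 CPM (log2 -0.08 ± 0.12 SE, adjusted p = 0.733, and 0.023 without it).

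DLD1 gave lower values for 4 of the 5 genes tested, and 0 were called. Over all 13551 genes 0.148% were called, all of them higher, and 3 of the members had an unadjusted p below 0.05, as did 17.7% of all genes. MT1X was 68.6, 40.0, 38.9 and 45.6 CPM in controls and 22.3, 29.045, 36.9 and 32.4 CPM with 2-MiCit. The groups did not overlap, as for 6.29% of genes in this direction, and the value was log2 -0.68 ± 0.21 SE (adjusted p = 0.232). MT1E was 534, 282, 237 and 280 CPM in controls, where replicate 1 exceeded the rest, and 166, 201, 240 and 220 CPM with 2-MiCit (log2 -0.69 ± 0.25 SE, adjusted p = 0.256). MT2A was 303, 169, 162 and 185 CPM in controls and 126, 129, 175 and 147 CPM with 2-MiCit (log2 -0.51 ± 0.21 SE, adjusted p = 0.273).

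Control replicate 1 of DLD1 was the highest library for all 4 metallothioneins tested and the lowest for SLC30A1, at 73.9 CPM against 95.2 to 105 CPM. Without it the log2 values were -0.36 for MT1E, -0.46 for MT1X and -0.25 for MT2A (adjusted p = 0.168, 0.164 and 0.260), and that of MT1F changed sign, from -0.28 to 0.10. SLC30A1 stood at log2 0.03 ± 0.12 SE (adjusted p = 0.910), and at -0.07 without that library. The fit shared over the 4 lines called MT1E (adjusted p = 0.0200) and MT1X (adjusted p = 0.0276) lower in DLD1. That fit included control replicate 1, and the share of all genes it called in DLD1 is not given here.

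**Figure D3:**
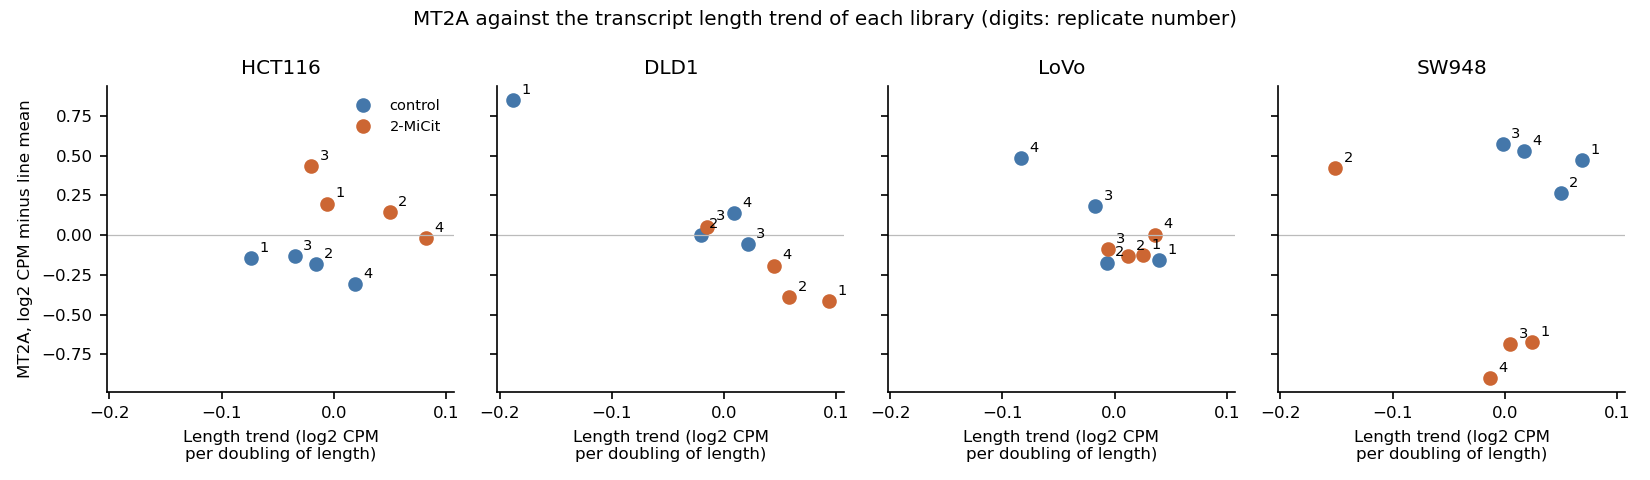
MT2A in each library as log2 CPM minus the mean of its line, against the slope of log2 CPM on transcript length in that library, for the lines of the first table, with controls in blue, 2-MiCit in orange and the replicate number beside each point. DLD1 control replicate 1 and SW948 2-MiCit replicate 2 lie farthest left, at -0.188 and -0.151, and both are high in MT2A for their group.

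LoVo had 2.3% of 13677 genes called and 0 of the 6 members, with 0 at an unadjusted p below 0.05, which 21.3% of all genes reached. MT2A was 43.8, 43.4, 55.4 and 68.4 CPM in controls and 44.8, 44.6, 46.0 and 48.9 CPM with 2-MiCit, and control replicates 3 and 4 lay above every treated library (log2 -0.21 ± 0.14 SE, adjusted p = 0.423). MT1X gave log2 -0.27 ± 0.13 SE (adjusted p = 0.261) and SLC30A1 -0.13 ± 0.08 SE (adjusted p = 0.386). MT1G, which LoVo expressed most, was 14.7, 16.0, 17.4 and 19.0 CPM in controls and 15.3, 15.6, 18.4 and 15.7 CPM with 2-MiCit (log2 -0.06 ± 0.10 SE, adjusted p = 0.787).

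HT29 had 7.67% of 13887 genes called and 0 of the members, with 1 at an unadjusted p below 0.05, against 24.2% of all genes. MT1E was narrow in both groups, at 99.3, 99.4, 102 and 96.9 CPM in controls and 104, 105, 102 and 104 CPM with 2-MiCit. Its groups did not overlap, as for 8.76% of genes in this direction, with control replicate 3 at 101.7 and 2-MiCit replicate 3 at 101.9 CPM, and the value was log2 0.07 ± 0.03 SE (adjusted p = 0.223). MT2A was 46.8, 46.1, 47.7 and 45.8 CPM in controls and 45.8, 41.6, 45.5 and 50.3 CPM with 2-MiCit (log2 -0.02 ± 0.05 SE). MT1F gave log2 0.57 ± 0.22 SE (adjusted p = 0.136), at 0.858, 1.06, 0.901 and 1.19 CPM against 1.03, 1.59, 1.45 and 1.85 CPM.

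SLC30A1 had its highest log2 value in HT29. It was 59.1, 56.3, 54.2 and 49.3 CPM in controls and 68.7, 50.5, 67.0 and 62.8 CPM with 2-MiCit, where replicate 2 fell among the controls (log2 0.19 ± 0.10 SE, adjusted p = 0.257). Without that replicate it was log2 0.28 (adjusted p = 0.0173). This was the only 1 of the 8 fits leaving out 1 library that called SLC30A1, and 0 of 9 alternative fits with all libraries did. The replicate did not stand apart by length slope (0.006), and the share of all genes called without it is not given here.

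In SW1417, 6.98% of 14089 genes were called and 0 of the members, with 1 at an unadjusted p below 0.05, against 21% of all genes. That was MT1X, the main metallothionein of the line, at 11.7, 11.4, 12.1 and 11.1 CPM in controls and 10.3, 10.3, 9.60 and 10.4 CPM with 2-MiCit. Its groups did not overlap, as for 6.65% of genes in this direction, and it missed the threshold (log2 -0.19 ± 0.06 SE, adjusted p = 0.0562). MT2A gave log2 -0.06 ± 0.09 SE, MT1E 0.07 ± 0.08 SE and SLC30A1 0.07 ± 0.04 SE (adjusted p = 0.773, 0.686 and 0.295).

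**Figure D4:**
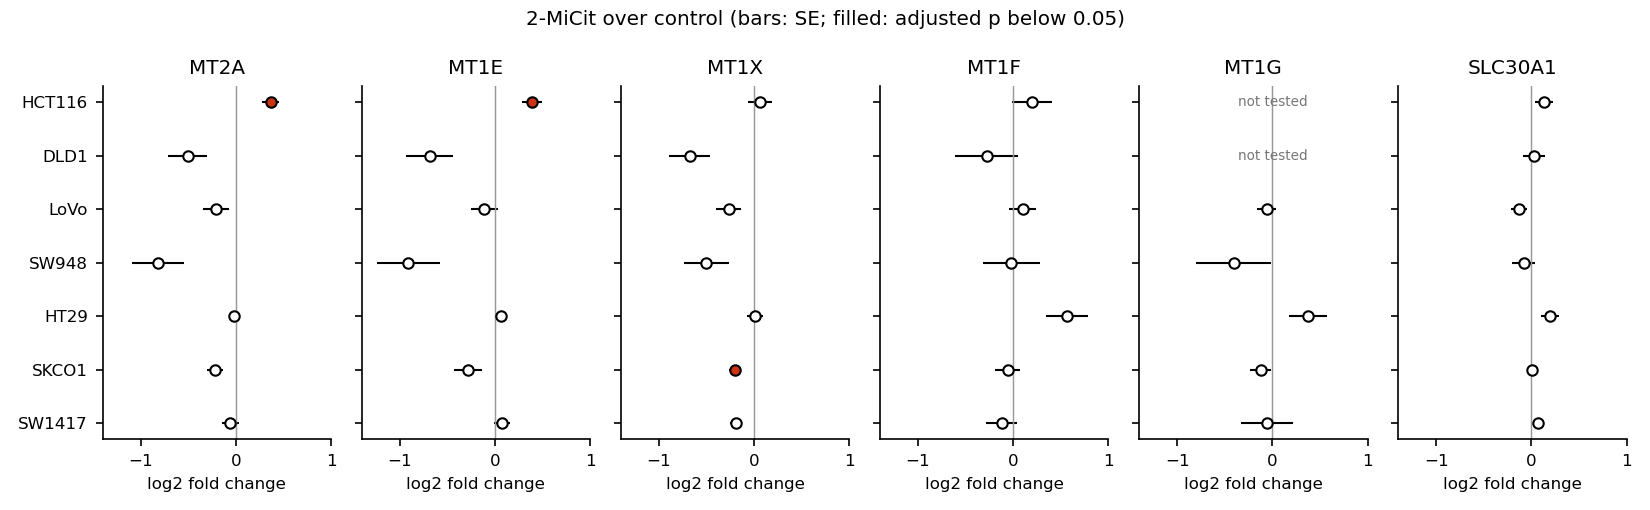
Log2 fold change of 2-MiCit over control for each gene (panels) in each line (rows), with bars of 1 SE. Filled points mark an adjusted p below 0.05: MT2A and MT1E in HCT116 and MT1X in SKCO1. MT1G was not tested in HCT116 and DLD1.

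Set side by side, the summed metallothionein level went from 611 to 797 CPM in HCT116 (1.30-fold), from 591 to 385 in DLD1 (0.651-fold), from 313 to 287 in LoVo (0.919-fold) and from 30.9 to 20.0 in SW948 (0.647-fold). In the last table it went from 155 to 160 CPM in HT29 (1.03-fold), from 77.7 to 66.9 in SKCO1 (0.861-fold) and from 25.5 to 24.1 in SW1417 (0.942-fold). Without control replicate 1 the change in DLD1 was from 483 ± 38.01 CPM (SD, n = 3) to 385 CPM (0.796-fold). Without 2-MiCit replicate 2 the change in SW948 was from 30.9 to 15.7 ± 0.436 CPM (SD, n = 3), 0.508-fold. These sums carry no test.

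Whether the response itself differed between lines was tested with the interaction of treatment and line in 1 edgeR fit per table. In the first table MT1E (adjusted p = 0.0139) and MT2A (adjusted p = 0.0188) differed over the 4 lines, as did 18% of 15800 genes. With the replicate number as a block, neither was called (adjusted p = 0.0646 for MT1E and 0.0562 for MT2A). MT1X (adjusted p = 0.144), MT1F (0.718) and SLC30A1 (0.525) did not pass. With the transcript length trend removed, MT1X passed in the same test (adjusted p = 0.0151). The response of MT1E in HCT116 exceeded that in DLD1 by log2 1.09 ± 0.26 SE (adjusted p = 0.00656), and that of MT2A by 0.90 ± 0.27 SE (adjusted p = 0.0376), in a contrast that called 8.34% of genes. MT2A also differed between HCT116 and SW948, by log2 1.22 ± 0.30 SE (adjusted p = 0.00499), where 18.7% of genes were called. MT1E missed the threshold there (log2 1.33 ± 0.49 SE, adjusted p = 0.0593). Among the 6 pairs of lines these 3 were the only differences called for the tested members. Without control replicate 1 of DLD1, the difference between HCT116 and DLD1 was log2 0.75 ± 0.19 SE for MT1E (adjusted p = 0.00942), and for MT2A it was 0.63 ± 0.23 SE and no longer called (adjusted p = 0.101). Without the library of SW948 labelled 2-MiCit replicate 2, MT2A differed between HCT116 and SW948 by log2 1.60 ± 0.26 SE (adjusted p = 0.000134), and MT1X was called there as well, at 0.88 ± 0.27 SE (adjusted p = 0.0276). Leaving out either library kept the call over the 4 lines for MT1E (adjusted p = 0.00809 and 0.0132) and MT2A (0.00854 and 0.000628), and the second brought MT1X to 0.0462. When all libraries of 1 replicate number were left out, the call was lost for MT1E without number 2 (adjusted p = 0.106) or 4 (0.0661), and for MT2A without 1 (0.0814), 3 (0.0826) or 4 (0.113). SLC30A1 differed by at most log2 0.27 ± 0.16 SE between HCT116 and LoVo (adjusted p = 0.453).

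The count over the 4 lines depended on single replicate numbers. With the libraries of replicate 1, 2, 3 or 4 left out it was 1, 1, 1 and 0. For the last table, 5.49% of 16090 genes differed over the 3 lines and 0 of the 6 members did (smallest adjusted p = 0.151 for MT1F and 0.159 for MT1E, both among those at an unadjusted p below 0.05).

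MT2A and MT1E, neighbours in the cluster, varied together across lines. Over the 7 lines the correlation of their log2 fold changes was 0.98, that of MT1E and MT1X 0.901 and that of MT1X and MT2A 0.868, while MT1F had 0.485 with MT2A, 0.54 with MT1E and 0.752 with MT1X. Those of SLC30A1 lay between 0.508 (with MT1F) and 0.636 (with MT2A), in the range of MT1F. These are descriptions over 7 points, and both genes of a pair come from the same libraries. Without the DLD1 and SW948 libraries described above, MT2A and MT1E had 0.985, MT1F 0.601 to 0.694 with MT2A, MT1E and MT1X, and SLC30A1 from 0.325 (with MT2A) to 0.511 (with MT1X). The genes most like MT2A by this measure, among 5755 called in at least 1 line and tested in all 7, were MT1E, MLYCD (0.976), FBXL4 (0.956), DEPTOR (0.953) and GPR153 (0.952). MLYCD encodes malonyl-CoA decarboxylase and DEPTOR an mTOR-binding inhibitor. Without those libraries DEPTOR had 0.962, FBXL4 0.893, MLYCD 0.808 and GPR153 0.749. For SLC30A1 they were TANK (0.972), CFAP418 (0.959), HERPUD1 (0.951), ZFP14 (0.933) and ZNF860 (0.911), where HERPUD1 is a gene of the endoplasmic reticulum stress response, and without those libraries they had 0.768 (HERPUD1) to 0.972 (CFAP418). Both lists hold the highest correlations picked from many genes over 7 points, so values this high can arise from the picking alone.

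Other genes of metal handling were followed in lists chosen with earlier results of these data known. Among zinc importers (SLC39A), which bring zinc into the cytosol, 4 of 11 tested fell in HCT116 and 1 rose, where 18% of all genes were called lower and 19% higher, with a median log2 value of -0.21 against 0.03 over all genes. SLC39A1, a plasma membrane importer, fell from 69.3 ± 3.30 to 54.4 ± 3.12 CPM there (log2 -0.37 ± 0.06 SE, adjusted p = 0.00110) and also fell in SW1417 (log2 -0.09 ± 0.03 SE, adjusted p = 0.0477). SLC39A10, an importer that rises when zinc is scarce, fell in HCT116 from 49.99 ± 5.45 to 39.7 ± 3.34 CPM (log2 -0.35 ± 0.09 SE, adjusted p = 0.00988) and was called in no other line. SLC39A11 rose in HCT116 (log2 0.26 ± 0.06 SE, adjusted p = 0.00450). In SKCO1, where 8.1% of all genes were called higher, 2 of 11 importers rose, SLC39A5 (log2 0.56 ± 0.16 SE, adjusted p = 0.0253) and SLC39A13 (log2 0.14 ± 0.04 SE, adjusted p = 0.0201), and 0 were called in DLD1, LoVo, SW948 and HT29.

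Of the other zinc exporters and vesicle transporters (SLC30A), 2 of 6 tested rose in HCT116, beside 19% of all genes. SLC30A4, which loads zinc into vesicles, went from 6.81 ± 0.572 to 9.55 ± 0.714 CPM (log2 0.47 ± 0.10 SE, adjusted p = 0.00400), and SLC30A9, a mitochondrial zinc exporter, rose by log2 0.24 ± 0.06 SE (adjusted p = 0.0151). SLC30A2 rose in HT29 (log2 0.77 ± 0.21 SE, adjusted p = 0.0444), and 0 of the list were called in the other 5 lines. MTF1, the zinc sensor, was called in no line. Its log2 value was -0.04 ± 0.09 SE in HCT116, 0.37 ± 0.14 SE in DLD1 (adjusted p = 0.262) and between -0.17 and 0.02 in the other lines. Of the metal regulatory factors, NFE2L2 alone was called, higher in HCT116 (log2 0.16 ± 0.05 SE, adjusted p = 0.0221).

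Of 17 genes of copper handling tested in each line, 1 rose and 2 fell in HCT116, where 37% of all genes were called. The metalloreductase STEAP2 went from 19.0 ± 1.81 to 32.01 ± 3.83 CPM (log2 0.73 ± 0.10 SE, adjusted p = 0.000442), CUTC fell (log2 -0.47 ± 0.06 SE, adjusted p = 0.000267) and the copper chaperone SCO1 fell (log2 -0.29 ± 0.06 SE, adjusted p = 0.00369). STEAP4 rose in HT29 (log2 0.44 ± 0.06 SE, adjusted p = 0.00208). In SKCO1 1 rose and 1 fell, where 18.9% of all genes were called, and 0 were called in the remaining 4 lines.

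Heavy metal and thiol stress genes split in HCT116, where 5 of 10 rose and 3 fell, beside 19% and 18% of all genes. SLC7A11, the cystine importer, went from 56.8 ± 7.96 to 120.6 ± 21.7 CPM (log2 1.07 ± 0.14 SE, adjusted p = 0.000447), and OSGIN1 from 18.9 ± 0.986 to 39.5 ± 4.99 CPM (log2 1.04 ± 0.09 SE, adjusted p = 3.96e-05). NQO1, a quinone reductase, went from 407 ± 11.4 to 607 ± 41.1 CPM (log2 0.56 ± 0.06 SE, adjusted p = 6.70e-05). SLC7A11 and NQO1 also rose in SKCO1, by log2 0.12 ± 0.04 and 0.07 ± 0.02 SE (adjusted p = 0.0446 and 0.0355), and 2 genes of the list fell there. TXNRD1, a thioredoxin reductase named here after its values were seen, rose in HCT116 (log2 0.46 ± 0.08 SE, adjusted p = 0.00130) and fell in SKCO1 (log2 -0.12 ± 0.02 SE, adjusted p = 0.00195). DNAJB1, a heat shock co-chaperone, fell in HCT116, SKCO1 and SW1417 (log2 -0.27, -0.08 and -0.10). HMOX1, the haem oxygenase that heavy metals induce, was called in no line, with log2 values from -0.25 ± 0.10 SE in LoVo to 0.13 ± 0.07 SE in HCT116. In HT29 and SW1417 1 gene of the list fell each, and 0 were called in DLD1, LoVo and SW948.

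Glucocorticoid receptor targets, another known route to metallothionein RNA, rose in HCT116 for 5 of 7 genes tested, beside 19% of all genes, with a median log2 value of 0.26 against 0.03 over all genes. NR3C1, the receptor gene, was also in the list and rose there from 19.6 ± 0.920 to 31.04 ± 3.82 CPM (log2 0.64 ± 0.09 SE, adjusted p = 0.000494). It had 0 counts in all libraries of DLD1, SW948 and HT29 (which allows up to 0.0490, 0.0475 and 0.0232 CPM over the 4 controls of each, 3 counts), and is named here after its values were seen. TSC22D3 (GILZ) went from 4.57 ± 0.582 to 14.5 ± 1.60 CPM, 3.14-fold (log2 1.65 ± 0.12 SE, adjusted p = 1.55e-05), and rose by log2 0.36 ± 0.08 SE in HT29 (adjusted p = 0.0226). KLF9 went from 4.13 ± 0.497 to 6.94 ± 0.596 CPM in HCT116 (log2 0.73 ± 0.12 SE, adjusted p = 0.00120) and rose in SW1417 (log2 0.16 ± 0.04 SE, adjusted p = 0.0246). ERRFI1 rose in HCT116 (log2 0.26 ± 0.06 SE, adjusted p = 0.00642) and DLD1 (log2 0.82 ± 0.10 SE, adjusted p = 0.0224) and fell in SKCO1 (log2 -0.22 ± 0.04 SE, adjusted p = 0.00217). FKBP5, a standard target of the receptor, fell in HT29 and SKCO1 (log2 -0.19 and -0.12) and did not pass in HCT116 (log2 -0.16 ± 0.09 SE, adjusted p = 0.178). The list had 1 gene called higher and 1 lower in SW1417, and 0 called in LoVo and SW948.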

How the data were processed

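RNA from the 56 libraries was extracted on GenElute columns and made into stranded mRNA libraries (Illumina), per the labels' protocols. The submitters' processing notes name bcl2fastq 2.20.0, Trimmomatic 0.39, Salmon 1.5.0, DESeq2 and the GRCh38.p13 build. The authors deposited whole-number counts per gene in 2 tables, each with a normalized signal, used here only as an alternative scaling. Salmon shares reads among near-identical transcripts, which can move counts between metallothionein genes. No 2 libraries held identical values (0), and identifiers without a symbol (1103 and 1126) stayed in the fits.

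Each line was tested with edgeR 4.0.16 in R 4.3.3 (filterByExpr, TMM, robust quasi-likelihood F test, two-sided, Benjamini-Hochberg over all genes), which names every adjusted p given for a gene. SE is the log2 fold change divided by the square root of F. Alternatives were RLE scaling, no or a stricter filter (at least 1 CPM in all 8 libraries), a shared fit, a replicate block, removal of the transcript length trend, DESeq2 1.42.0, each library left out, and, added after seeing the data, the authors' normalization and the differences between lines, correlations and summed levels without the libraries that stand apart. Counts were simulated with a common spread for all genes, taken from the control libraries of each line, and only well-counted genes were changed. In them, 2-fold changes were recovered for 69% of genes in DLD1 and 99% to 100% in the other lines. Changes of 1.5-fold were recovered for 10% in DLD1, 73% in HCT116 and LoVo, 84% in SW948 and 96% to 99% in the last table. The spread of single genes and of treated libraries did not enter, so these shares need not hold for the real libraries. In HCT116 libraries of the same number deviated together (r = 0.109 to 0.438 over genes, in all 4 pairs), a hint from the data that the numbers are pairs there. The values printed for HCT116 are nevertheless from the fit without a block. The block changed no call of a member in that line.

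The 6 genes, the pathway lists and the rule for other named genes (MTF1, SLC39A10 and HMOX1 always, up to 4 genes of a list by the number of lines called, and the 5 genes most like MT2A and SLC30A1) were chosen with earlier results of these data known. Coordinates and coding sequences are from GENCODE 29, promoters from RefSeq.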

Additional observations from a re-analysis of the deposited data

Results flagged for a closer look

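In 80 groups of 4 libraries (MT1G in HCT116 and DLD1 left out), a library was set aside for attention when its gap to the nearest other passed Dixon's critical share of the group's range, which chance gives in about 1 of 20 groups. This picked out 9 values. In DLD1, control replicate 1 had MT1E at 534 CPM, against 237 to 282 CPM in the other controls, and MT2A at 303 CPM, against 162 to 185 CPM. In SW948, 2-MiCit replicate 2 had MT2A at 16.4 CPM, against 6.56 to 7.66 CPM, and MT1X at 10.5 CPM, against 5.02 to 5.73 CPM. These are the 2 libraries with the steepest length slopes, whose part in these values was not tested.

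Among the scarcer genes, MT1F was 2.24 CPM in SW948 control replicate 2 (others 1.17 to 1.29 CPM) and MT1G 0.510 CPM in SW948 control replicate 3 (others 1.22 to 1.36 CPM). MT1G was 18.4 CPM in LoVo 2-MiCit replicate 3 (others 15.3 to 15.7 CPM). In SW1417 with 2-MiCit, MT1E was 6.07 CPM in replicate 2 (others 5.60 to 5.66 CPM) and MT1X 9.60 CPM in replicate 3 (others 10.3 to 10.4 CPM).

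Responses that differed between lines by the interaction test in edgeR were those of MT1E between HCT116 and DLD1 (log2 1.09, adjusted p = 0.00656), MT2A between HCT116 and DLD1 (log2 0.90, adjusted p = 0.0376) and MT2A between HCT116 and SW948 (log2 1.22, adjusted p = 0.00499). The test over the 4 lines, once blocked by replicate number, called neither MT1E nor MT2A (adjusted p = 0.0646 and 0.0562).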

How the results depend on the processing

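Simulated recovery was lowest in DLD1 (69% of 2-fold changes), and MT1E in SW948 rested on 6 to 26 counts per library. In 1 fit over all lines of a table, members called went from 2 to 0 in HCT116, from 0 to 2 in DLD1, from 0 to 1 in HT29 (MT1F) and from 1 to 2 in SKCO1. The share of all genes called is not given for this and the following fits. The counts therefore describe only how the calls depend on the fit. In SKCO1 the count was 2 with DESeq2 and 0 with the authors' normalization, where MT1X had log2 -0.22 (adjusted p = 0.0894). With libraries left out it ran from 0 to 3 in SKCO1, from 0 to 1 in SW948 and HT29, and from 0 to 3 for the difference between the lines of the first table (2 without DLD1 control replicate 1). With the replicate block, members called in SKCO1 were 2, also with the length trend removed (MT2A, adjusted p = 0.00500 and 0.00311). The block gave 0 differences between lines in the first table (adjusted p = 0.0646 for MT1E and 0.0562 for MT2A) and 1 in the last (MT1E, adjusted p = 0.00719). The block changed no other count of members called. Outside HCT116 the hint that the numbers are pairs was weaker or absent. Same-numbered libraries had r from -0.451 to 0.09 in DLD1, -0.102 to 0.193 in LoVo and -0.12 to 0.299 in SW948. In the last table r was 0.057 to 0.172 in HT29, -0.078 to 0.114 in SKCO1 and -0.194 to 0.012 in SW1417. Every r in HT29 was thus positive. Libraries correlated best with their own number for 3 numbers in HT29, 2 in SKCO1, 1 each in LoVo and SW948, and 0 in DLD1 and SW1417. Whether the numbers are pairs in these lines is not known, and the counts with the block in the last table depend on it. By library size alone the control level was 97.8 CPM for SLC30A1 in SKCO1, 11.1 for MT1X and 55.3 for SLC30A1 in SW1417. Where not stated, the cause was not tested.

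No called value changed sign (0 of 32 changes of sign, in 13 of 40 fold changes). With the length trend removed, alone and with the block, log2 values changed sign to -0.10 and -0.11 for SLC30A1 in DLD1, 0.017 and 0.016 for MT1G in LoVo, 0.013 and 0.0067 for SLC30A1 in SW948, and -0.019 and -0.018 for SLC30A1 in SKCO1. SLC30A1 in SKCO1 was -0.0027 with the authors' normalization and -0.0055 in the shared fit. With libraries left out, values crossed 0 for MT1X in HCT116 (-0.074 to 0.15), in DLD1 for MT1F (-0.50 to 0.10) and SLC30A1 (-0.066 to 0.089), and in LoVo for MT1E (-0.23 to 0.039), MT1F (-0.0095 to 0.18) and MT1G (-0.12 to 0.015). They also did so in SW948 for MT1F (-0.25 to 0.25) and SLC30A1 (-0.19 to 0.023), in HT29 for MT1X (-0.039 to 0.046) and MT2A (-0.071 to 0.020), in SKCO1 for MT1F (-0.15 to 0.00062) and SLC30A1 (-0.022 to 0.021), and in SW1417 for MT1G (-0.14 to 0.059).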

Other observations

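In HCT116, MT1X counts stood lower relative to MT2A counts in the treated libraries than in the controls. MT1X counts as a percent of MT2A counts in the same library, a ratio free of library scaling, were 8.32%, 8.08%, 9.37% and 8.50% in controls and 6.95%, 6.69%, 7.38% and 6.54% with 2-MiCit, without overlap. MT1E counts as a percent of MT2A counts were 70.5% to 74.6% and 69.3% to 75.7%, with overlap. In SW948 the MT1X percentage went the other way, from 49.4% to 62.8% in controls to 63.9% to 84.7% with 2-MiCit, also without overlap, at 76 to 179 MT1X counts per library. In DLD1 the lowest control (22.602%) and the highest treated library (22.595%) all but met, and in LoVo, HT29, SKCO1 and SW1417 the groups overlapped. MT1X is the metallothionein whose reads are most shared with other copies, and no test was made of these ratios. How many other pairs of genes would separate the groups was not counted. Single genes tested in HCT116 did so upward for 20% and downward for 15.4%.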
